A study of Mus musculus with 2 samples.

Results

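The cytosolic ribosomal protein genes were taken as the genes whose symbol is Rpl or Rps followed by a digit, or is Rpsa, Rplp0, Rplp1 or Rplp2. Left out were 282 symbols of pseudogenes named with -ps, the 10 Rps6k kinases and 3 names with other added words. The rule gave 90 of 52636 genes. Of these, 77 encode the standard proteins of the ribosome, 31 in the small and 46 in the large subunit. The other 13 are paralogs or copies such as Rpl22l1 and Rps27l, of which 6 are annotated as pseudogenes. The 90 genes lie on 19 chromosomes, 4 of them on X, and each had a UMI (unique molecular identifier, the count of 1 captured molecule) in both libraries.

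The data were droplet single-cell RNA libraries (10x Chromium 3′ chemistry) of gut cells freed with papain from mouse embryos at E18.5, shortly before birth, on the C57BL/6 background. The tissue is named as intact gut in the protocol and as small intestine elsewhere in the labels. The Mlkl-null library (Mlkl -/-) is labelled as lacking the executor of necroptosis, a lytic form of cell death. The Casp8-mutant library (Casp8 C362A/C362A Mlkl -/-) is labelled as carrying caspase-8 with its catalytic cysteine replaced and as lacking Mlkl too, so by the labels both groups share the Mlkl deletion and no library is wild type. There was 1 library per genotype, and the labels do not say how many embryos each holds. No difference below therefore has a replicate check or a test, and genotype, embryo, library and sex cannot be told apart. Each ratio is the Casp8-mutant over the Mlkl-null level, and each interval is a 95% interval for counting error only. Levels are in CPM, the UMIs of a gene per 1000000 UMIs of the class.

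Ribosomal proteins are the protein part of the particle that makes all cellular proteins, and each standard protein is present in about equal number per ribosome. Most of their mRNAs begin with a run of pyrimidines (C or T in the DNA), the terminal oligopyrimidine tract, through which mTOR signalling and Larp1 set their translation and stability. Growing and dividing cells, such as the progenitors of the gut epithelium, make more ribosomes than differentiated enterocytes. The genes have also left many processed pseudogenes, intronless copies of the mRNA, in the mouse genome.

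Runs of pyrimidines were looked for near the annotated starts. The RefSeq promoter table (GRCm38.p6) held 65 of the 90 members. In a window from 5 bases before to 25 bases after the start, a run of at least 8 letters, each C or T, on the coding strand reached into the window for 33 of 65 members (50.8%) and for 18.02% of 27025 genes in the table. Runs of at least 10 were found for 38.5% of members and 8.91% of all genes. A counted run need not begin at the start, as the tract does, so these shares are not shares of genes with a tract. The windows that follow belong to members at both ends of the genotype comparison, with the longest run of C or T in capitals, of 7 letters in Rpl31 and longer in the others shown. Rpl11, Rpl32l and Rpl31 had among the largest epithelial ratios, and Rpl13a, Rpl14 and Rps9 were at least 1.5-fold lower in fibroblast-like cells.
Rpl11, chr4:136053369-136053398, minus strand: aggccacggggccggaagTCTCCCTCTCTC
Rpl32l, chr10:20208434-20208463, plus strand: accagCTTCTTCCTTggtgctgcctacgag
Rpl31, chr1:39367846-39367875, plus strand: gCCTCCCCgtgacccggaagttgtacggct
Rpl13a, chr7:45128721-45128750, minus strand: gacaagaCCTCCTCCTTTCCCaggcggctg
Rpl14, chr9:120571512-120571541, plus strand: TCTCTCTTCTCgctgagcgccgccaacatg
Rps9, chr7:3704036-3704065, plus strand: CTCTCTTTgtctcgggcctgagttcgtagg
Among other members named below, the longest runs were of 3 letters for Rpl41 and Rps15, of 5 for Rpl27 and Rps3 and of 7 for Rps19. Rpl4 has 1 letter of its run of 14 in the window. The windows of further named members are not given. A match describes these letters only, and where transcription began in these cells was not measured.

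The Mlkl-null library held 1478 barcodes and 6290008 UMIs, and the Casp8-mutant library 1014 barcodes and 2804929 UMIs, with medians of 3654 and 1797.5 UMIs per barcode. After filtering, 1435 and 873 cells remained, and 2 barcodes occurred in both libraries. Mlkl had 1 and 13 UMIs (0.159 and 4.63 CPM), so the library labelled Casp8 C362A/C362A Mlkl -/- held some Mlkl transcript against its label, and whether the counted part lies outside the deletion was not given in the sources used here. Casp8, whose mutation counts per gene do not check, had 401 and 235. Xist had 2 and 8478 UMIs and the Y-linked Ddx3y 277 and 2, so the libraries differ in sex. Cells were clustered without the ribosomal protein genes, and clusters were named from marker genes as "-like" classes. Epithelial-like (1187 and 585 cells), fibroblast-like (54 and 57) and myeloid-like cells (61 and 109) were compared between genotypes, since no other class had 50 cells in each library. The clusters were nearly all of 1 library within the epithelium: 0, 1, 2, 5, 6, 11 and 12 held Mlkl-null cells, 3, 9 and 14 held Casp8-mutant cells, cluster 4 held 1 and 155, and cluster 10 held 6 and 94. The myeloid-like cells were in cluster 15 (50 of 61) and cluster 7 in the Mlkl-null library and in cluster 7 alone in the Casp8-mutant library, and cluster 8 held the fibroblast-like cells of both.

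Ribosomal protein genes took a larger part of all UMIs in the Casp8-mutant than in the Mlkl-null library in each compared class, as clustered at resolution 1. Which class had the widest gap depended on the clustering. In epithelial-like cells the share was 6.78% (6.76 to 6.80) in the Mlkl-null and 9.54% (9.50 to 9.58) in the Casp8-mutant library, a ratio of 1.41 (1.40 to 1.41). In fibroblast-like cells it was 10.2% and 10.7%, a ratio of 1.05 (1.03 to 1.07). In myeloid-like cells it was 8.73% and 9.71%, a ratio of 1.11 (1.09 to 1.14). The median cell had 4.64% and 5.88% in the epithelium, 9.58% and 10.5% among fibroblast-like and 8.87% and 9.77% among myeloid-like cells. The epithelial cells of the libraries overlapped widely, with interquartile ranges of 3.17% to 7.24% and 3.07% to 11.9%. With each cell thinned to 1000 UMIs, which left out 10 Casp8-mutant cells, the epithelial medians were 4.70% and 5.90%.

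The size of the epithelial gap depended on cluster 4. Without this cluster the epithelial shares were 6.78% and 6.90%, a ratio of 1.02 (1.01 to 1.03). Without both cluster 4 and cluster 6, the Mlkl-null epithelial cluster with the highest share, they were 5.64% and 6.90%, a ratio of 1.22 (1.21 to 1.23). Both were chosen after seeing the data. The name of cluster 4 was not stable either. Clustering at resolution 0.5 named its 155 Casp8-mutant cells, and 23 of cluster 14, granulocyte-like. The epithelial ratio of shares was then 1.01 (1.01 to 1.02), below the 1.09 of fibroblast-like and the 1.11 of myeloid-like cells. It was 1.02 (1.01 to 1.03) when called doublets were kept, which again renamed the 155 cells. With at least 1000 detected genes per cell, 153 of the 155 left the epithelial class, but so did 104 of the 167 cells of cluster 3, and the ratio was 1.19 (1.18 to 1.19). The 9 granulocyte markers summed to 33.3 CPM in Mlkl-null and 3289.6 in Casp8-mutant epithelial-like cells, with 8 and 9 of the 9 detected. They stood at 25.4 and 3027 in fibroblast-like cells, where 3 and 9 were detected. In myeloid-like cells they stood at 32.4 and 3923, with 2 and 8 detected. Their part in the result was not tested.

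**Figure D1:**
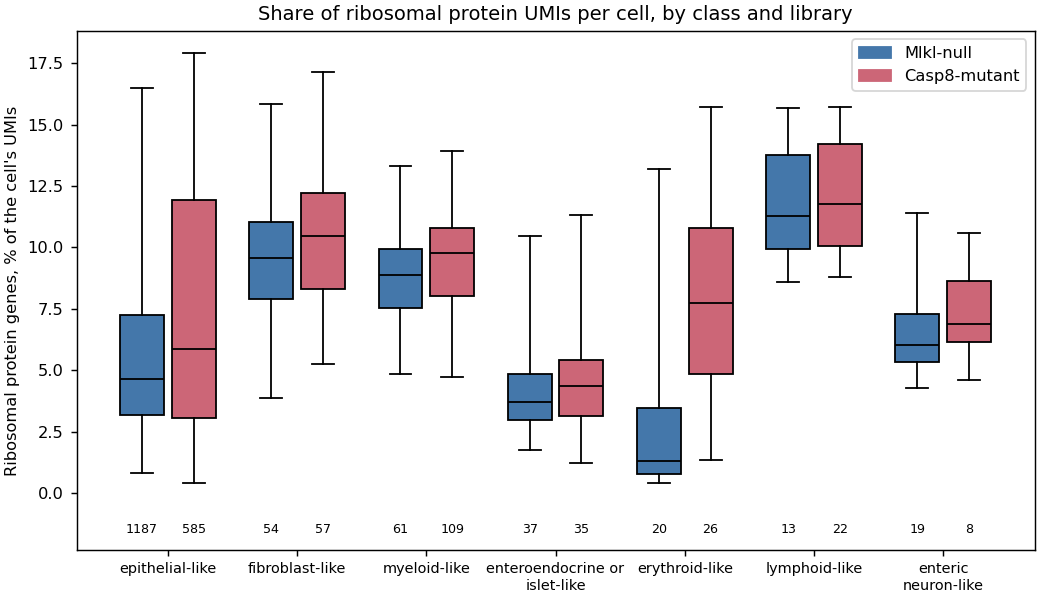
Share of ribosomal protein UMIs per cell (y axis, % of the cell's UMIs) by cell class and library. Boxes span the interquartile range with the median as a line, whiskers reach the lowest and highest cell, and cell numbers stand under the boxes. Epithelial-like cells run from 0.806% to 16.5% in the Mlkl-null and from 0.423% to 17.9% in the Casp8-mutant library.

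Smaller classes are given as values only. Lymphoid-like cells (13 and 22 cells) had medians of 11.3% and 11.8%. Enteroendocrine or islet-like cells (37 and 35), which secrete hormones, had 3.71% and 4.37%. Erythroid-like cells (20 and 26) had 1.33% and 7.74%, while haemoglobin genes held 55.0% and 28.4% of their UMIs. As a share of the UMIs outside haemoglobin, the ribosomal protein genes of erythroid-like cells made up 7.86% and 11.1%.

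Within the epithelium the share ranged more between clusters of 1 library than between the libraries. Cluster 4 (Casp8-mutant), led by Gpx2, the antimicrobial Reg3g and Reg3b, and the nucleolar Npm1, had the highest share, 13.1% of UMIs. Cluster 6 (Mlkl-null), led by Edn1 and Ccnd2 with the cell cycle genes Hmgb2 and Ccnb2 among its top genes, followed with 11.3%. Cluster 2 (Mlkl-null), led by the lipid genes Cd36, Apoc2 and Apoa4, had the lowest, 2.61%. Cluster 3 (Casp8-mutant), led by Sprr2a3 and interferon-induced genes such as Ifit1 and Isg15, had 3.51%. The secretory clusters, led by Paneth and goblet genes such as Defa24, Tff3 and Fcgbp, had 9.04% (cluster 12, Mlkl-null) and 7.39% (cluster 10, its Casp8-mutant cells).

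**Figure D2:**
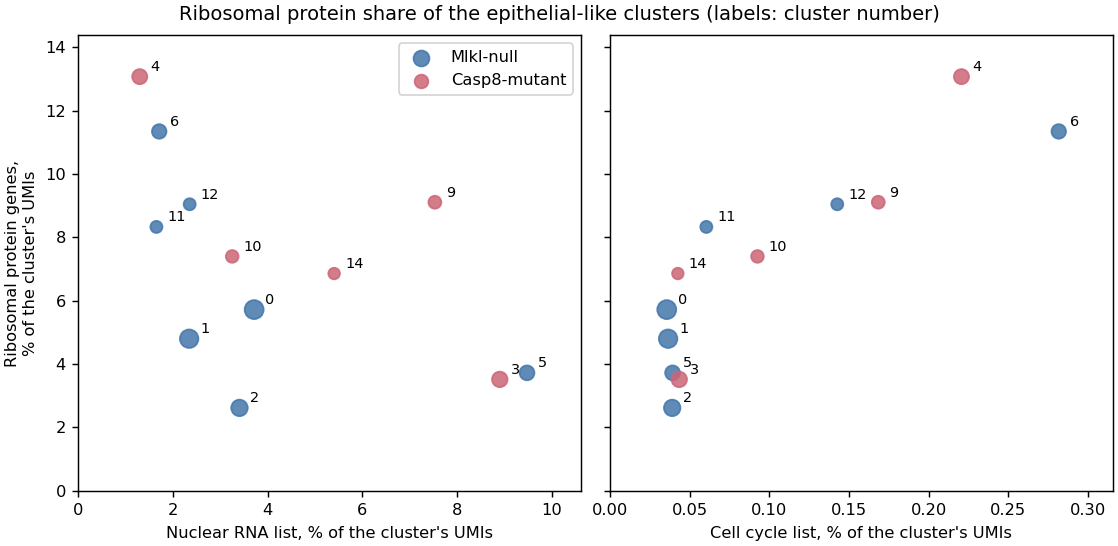
Ribosomal protein share (y axis, % of UMIs) of the epithelial-like clusters with at least 20 cells, against the share of the nuclear RNA list (left, %) and of the cell cycle list (right, %). Each point is 1 cluster in 1 library, larger with more cells, and coloured by library. Clusters 4 and 6 stand highest and have the highest cell cycle shares, 0.221% and 0.282%.

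The cell cycle list was higher in the Casp8-mutant library in the epithelium as clustered at resolution 1, but not in the other classes. Its 20 genes made up 0.0996% and 0.150% of epithelial UMIs, 0.132% and 0.124% of fibroblast-like and 0.112% and 0.0896% of myeloid-like UMIs. Among Casp8-mutant epithelial-like cells, the list made up 0.221% of the UMIs of cluster 4, whose name was not stable. It made up 0.0434%, 0.168%, 0.0925% and 0.0425% in clusters 3, 9, 10 and 14. The epithelial share of the list without cluster 4 is not given. In cells thinned to 1000 UMIs, 14.8% and 29.2% of epithelial-like cells held at least 2 UMIs of the list. The median ribosomal protein share of these cells was 9.70% and 11.7%. It was 4.6% and 6.50% in cells with 1 such UMI and 4.30% and 3.90% in the 709 and 248 cells with none. The ratio of shares over all thinned cells, 1.32 (1.30 to 1.33), was 1.08 (1.06 to 1.1) among those with none and 1.18 (1.16 to 1.21) among those with at least 2. At full depth, the 297 and 165 cells without a cell cycle UMI gave 0.983 (0.964 to 1.003). This split is not matched for depth. The share over thinned cells had a Spearman correlation of 0.71 and 0.72 with full depth in the Mlkl-null and Casp8-mutant library. The part of cycling in the gap was not tested beyond these splits.

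Nuclear RNA ran against the share. The list of 8 nuclear RNAs, led by Malat1, made up 3.10% and 4.14% of epithelial UMIs. In the Casp8-mutant library it made up 1.30% in cluster 4, whose name was not stable, and 3.25% to 8.90% in the other epithelial clusters. The values of this paragraph without cluster 4 are not given. In the quartile of thinned cells lowest for the list, the median ribosomal protein share was 8% and 13.1%, and in the highest quartile it was 3% and 3.20%. The highest quartile held 17.1% and 41.9% of the cells. Over the thinned cells of each library, which share depth and library, the Spearman correlation of the 2 shares was -0.55 in 1187 Mlkl-null and -0.77 in 575 Casp8-mutant cells. The part of nuclear RNA in the gap was not tested.

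Single members were compared where a class held at least 100 of their UMIs over both libraries, and were called higher or lower at 1.5-fold or more. In epithelial-like cells 86 members met this floor. Of these 58 were higher in the Casp8-mutant library (67.4%, against a background of 22.4% of all genes at the floor) and 0 were lower (background 35.6%). The median log2 ratio was 0.86 for the members and -0.28 for the 8118 genes at the floor. The 8118 genes include the 86 members and 669 processed copies of ribosomal protein genes. Of these copies, 625 were higher and 0 lower. The summed level of the small subunit genes had a ratio of 1.251 and that of the large subunit genes 1.54. In fibroblast-like cells these ratios were 0.911 and 1.17 and in myeloid-like cells 0.988 and 1.21. Gene by gene, the gap between the subunits was smaller in the epithelium, with median log2 ratios of 0.79 and 0.87. In fibroblast-like cells these medians were 0.50 and 0.35, the other way round, and in myeloid-like cells 0.51 and 0.54. With levels scaled by the median ratio of all genes, 69 members were higher and 0 lower. Scaled by the summed members, 21 were higher and 6 lower. The background under these 2 scalings is not given, so these counts cannot be set against all genes. At a floor of 1000 UMIs, 55 of 80 members were higher (background 26.6%) and 0 lower (background 35.4%). Without cluster 4, 25 of 86 were higher (29.1%, background 16%) and 4 lower (4.65%, background 35.7%). Without clusters 4 and 6, 46 of 86 were higher (53.5%, background 19.3%) and 2 lower (2.33%, background 35.3%). In the 297 and 165 cells without a cell cycle UMI at full depth, 18 of 77 were higher (23.4%, background 15.9%) and 7 lower (9.09%, background 37.2%).

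Large subunit genes and 1 copy filled the upper end. Rpl41, a very short basic peptide of the large subunit (75 coding bases, gene at chr10:128548114-128549305, GRCm38), had 1804 and 5318 CPM in Mlkl-null and Casp8-mutant epithelial-like cells, a ratio of 2.95 (2.87 to 3.03). Rpl27 (chr11:101442298-101445529) had 129 and 399.8, a ratio of 3.10 (2.80 to 3.44). Rpl36 had 283 and 837, a ratio of 2.95 (2.75 to 3.17). These genes stood apart by a similar ratio, and the counting intervals of their levels do not overlap between the libraries. Rpl11, which binds the p53 inhibitor Mdm2 when free of the ribosome, had 219.98 and 603, a ratio of 2.74 (2.53 to 2.97). Rpl31, at the exit of the peptide tunnel, had 158 and 413, a ratio of 2.61 (2.37 to 2.87). Rpl32l, an annotated pseudogene, had 309 and 792, a ratio of 2.57 (2.39 to 2.75). Without cluster 4 the ratios of Rpl41, Rpl27 and Rpl11 were 2.34, 2.13 and 1.84.

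At the lower end, 5 members had epithelial intervals wholly below 1, none of them past 1.5-fold, and the following are among the lowest ratios. Rpl13a, a large subunit protein also known for translational silencing after interferon-gamma, had 2662 and 1889 CPM, a ratio of 0.710 (0.685 to 0.736). Rpl4, which lines the peptide exit tunnel and has the longest coding sequence among the members (1257 bases, gene at chr9:64173375-64178666), had 1561 and 1236, a ratio of 0.792 (0.757 to 0.828). Rps14 had 3209 and 2903, a ratio of 0.905 (0.878 to 0.932), and Rps15 had 1869 and 1677, a ratio of 0.897 (0.863 to 0.933). Rps3, at the mRNA entry site, had 2569 and 2492, a ratio of 0.970 (0.939 to 1.002). Scaled by the median ratio of all genes, Rps14, Rps15 and Rps3 stood at 1.101, 1.09 and 1.18, on the other side of 1. Without cluster 4, Rpl13a and Rpl4 stood at 0.524 and 0.546, past the 1.5-fold line.

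The 2 most abundant members in Mlkl-null epithelial-like cells lay near equal levels when counted without their processed copies. Rps19, a small subunit assembly protein mutated in Diamond-Blackfan anaemia, had 4747 and 4785 CPM, a ratio of 1.01 (0.985 to 1.03). Rpl32 had 4291 and 4501, a ratio of 1.05 (1.02 to 1.07). Scaled by the summed members, these stood below 1, at 0.717 and 0.746, and scaled by the median ratio of all genes they stood at 1.23 and 1.28. Without cluster 4, Rps19 stood at 0.764. Summed with their processed copies, Rps19 and Rpl32 had ratios of 1.41 (1.38 to 1.43) and 1.39 (1.36 to 1.42). The 39 standard members with up to 456 coding bases, the median, had a median log2 ratio of 0.97 and the 38 longer ones 0.69.

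**Figure D3:**
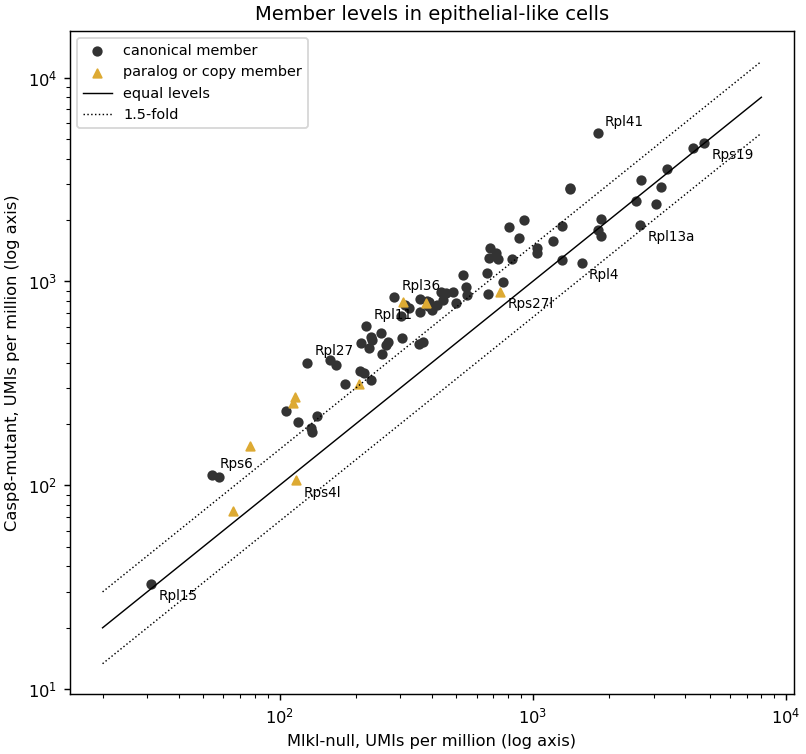
Level of each member with at least 100 UMIs in epithelial-like cells (CPM), Mlkl-null on x and Casp8-mutant on y, both log axes. Markers separate standard members from paralogs or copies, the solid line is equal levels and dotted lines are 1.5-fold. Of the 86 points, 58 lie above the upper dotted line and 0 below the lower one. Rps19 and Rpl32, the most abundant by Mlkl-null level, lie near the solid line. Rpl41, the most abundant by Casp8-mutant level, lies above the upper dotted line.

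The stalk proteins, which recruit elongation factors, differed among themselves. Rplp0, the base of the stalk, had 549 and 854 CPM in epithelial-like cells, a ratio of 1.56 (1.46 to 1.65). Rplp1 had 2676 and 3157, a ratio of 1.18 (1.15 to 1.22), and Rplp2 had 882 and 1637, a ratio of 1.86 (1.78 to 1.94). In fibroblast-like cells the ratios of Rplp0, Rplp1 and Rplp2 were 0.994 (0.794 to 1.24), 0.976 (0.875 to 1.09) and 1.74 (1.48 to 2.05). In myeloid-like cells they were 0.885 (0.719 to 1.09), 0.965 (0.865 to 1.08) and 1.38 (1.15 to 1.66). Rplp2 had the largest ratio of the stalk genes in each class. Rpl5, the partner of Rpl11 in binding Mdm2, had 134 and 183 CPM in epithelial-like cells, a ratio of 1.36 (1.199 to 1.55), below that of Rpl11. Rps6, the target of the Rps6k kinases, had 54.3 and 112, a ratio of 2.06 (1.72 to 2.46), from 290 and 225 UMIs. Rpsa, also known as the laminin receptor, had 254 and 441, a ratio of 1.74 (1.59 to 1.89).

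Of the X-linked members, Rpl39 had an epithelial ratio of 2.25 (2.09 to 2.42), Rpl10 of 2.099 (1.93 to 2.29), Rpl36a of 1.86 (1.71 to 2.01) and Rps4x of 1.30 (1.23 to 1.38). These lie within the range of the other members, 0.710 to 3.10. The part of the sex difference in them was not tested.

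Of the 13 paralogs and copies, 9 met the floor in epithelial-like cells, 6 were higher (background 22.4%) and 0 lower (background 35.6%). Rps27l, a p53 target, had 744 and 885 CPM, a ratio of 1.19 (1.13 to 1.26), and its parent Rps27 had 680.0 and 1455, a ratio of 2.14 (2.04 to 2.25). Rpl22l1, which can stand in for Rpl22, had 207 and 315, a ratio of 1.53 (1.38 to 1.68), and Rpl22 had 765 and 995, a ratio of 1.30 (1.23 to 1.37). Counted without copies, the paralog was thus nearer to equal levels than its parent for Rps27l and further from them for Rpl22l1. With its 4 processed copies, Rpl22 had a ratio of 1.72 (1.65 to 1.79), further from equal levels than Rpl22l1. Rps27 with its 13 copies had 2.30 (2.23 to 2.38), still further than Rps27l. Rpl36al had 379.7 and 779.7, a ratio of 2.05 (1.92 to 2.19), and Rpl7l1 65.7 and 74.5, a ratio of 1.14 (0.930 to 1.38). The pseudogene-annotated Rps3a2, Rps3a3 and Rpl6l had ratios of 2.03 (1.75 to 2.36), 2.34 (2.08 to 2.63) and 2.24 (1.99 to 2.52), and Rps4l one of 0.913 (0.776 to 1.07). Rpl39l (18 and 12 UMIs), Rpl10l (28 and 23), Rps12l1 (27 and 23) and Rpl3l (0 and 6) were under the floor.

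In fibroblast-like cells, which express the collagens Col1a1, Col1a2 and Col3a1, 73 members met the floor and 17 did not. Of the 73, 28 were higher (38.4%, background 27.9%) and 5 lower (6.85%, background 19%), with a median log2 ratio of 0.41 against 0.11 over 641 genes. The 641 genes include the 73 members and 121 processed copies of ribosomal protein genes. Of these copies, 63 were higher and 1 lower. Rpl41 had 3103 and 7415 CPM, a ratio of 2.39 (2.18 to 2.62). Rpl32l had 360.3 and 782, a ratio of 2.17 (1.63 to 2.90). The 5 lower members are all near or below equal levels in the epithelium. Rpl4 had 2412 and 1189 (2.02-fold lower, 1.72 to 2.41), Rpl14 had 2149 and 1170.0 (1.83-fold lower, 1.55 to 2.19) and Rps14 had 5396 and 3173 (1.70-fold lower, 1.53 to 1.89). Rpl13a (1.66-fold lower, 1.46 to 1.91) and Rps9 (1.62-fold lower, 1.43 to 1.86) also passed the line. At a floor of 1000 UMIs, 2 of 12 members were higher (16.7%, background 36.4%) and 3 lower (25%, background 15.2%). There the share higher lay below the background and the share lower above it. The 33 background genes at this floor include these 12, and 3 of the 5 lower ones are members, so the background is not independent of them. Thinned to 1000 UMIs per cell, 8 members were higher and 4 lower, with the number measured and the background not given. Other lists also differed between the libraries in this class. Haemoglobin genes summed to 0.239% and 0.963% of UMIs, a ratio of 4.03. The 7 smooth muscle markers summed to 907 and 242 CPM, with 7 detected in each, and the 7 endothelial ones to 687 and 203, with 7 and 6 detected. The 9 fibroblast markers summed to 6871 and 6912 CPM. The 18 epithelial markers summed to more in these cells, 8710 and 7586 CPM, against 55407.6 and 41189.5 in epithelial-like cells. The part of these lists in the ratios was not tested.

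In myeloid-like cells, which express the macrophage complement genes C1qa, C1qb and C1qc, 69 members met the floor and 21 did not. Of the 69, 33 were higher (47.8%, background 30%) and 3 lower (4.35%, background 16.4%), with a median log2 ratio of 0.56 against 0.20 over 604 genes. The 604 genes include the 69 members and 121 processed copies of ribosomal protein genes. Of these copies, 61 were higher and 1 lower. Rpl41 had 2054 and 5400.4 CPM, a ratio of 2.63 (2.33 to 2.96). Rps29, of the small subunit, had 346 and 833, a ratio of 2.40 (1.79 to 3.27). The lower members were Rpl4 with 1989.5 and 1147 (1.73-fold lower, 1.46 to 2.06), Rpl13a with 3265 and 2011 (1.62-fold lower, 1.43 to 1.85) and Rps9 with 3325 and 2153 (1.54-fold lower, 1.36 to 1.75). Thinned to 1000 UMIs per cell, 19 were higher and 3 lower, with the number measured and the background not given. At a floor of 1000 UMIs, 1 of 8 members was higher (12.5%, background 17.2%) and 1 lower (12.5%, background 27.6%), both below the background. The 29 background genes at this floor include these 8. The 10 myeloid markers themselves summed to 31675 and 13520 CPM, all detected in each library. The 18 epithelial markers summed to 8050 and 6752 CPM in these cells. The 8 erythroid markers summed to 3065 and 17375 CPM, with 5 and 8 detected, and haemoglobin genes to 0.306% and 1.80% of UMIs, a ratio of 5.89. Their part in the ratios was not tested. The class comparisons take different cells of the same libraries, and their likeness is not independent evidence.

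**Figure D4:**
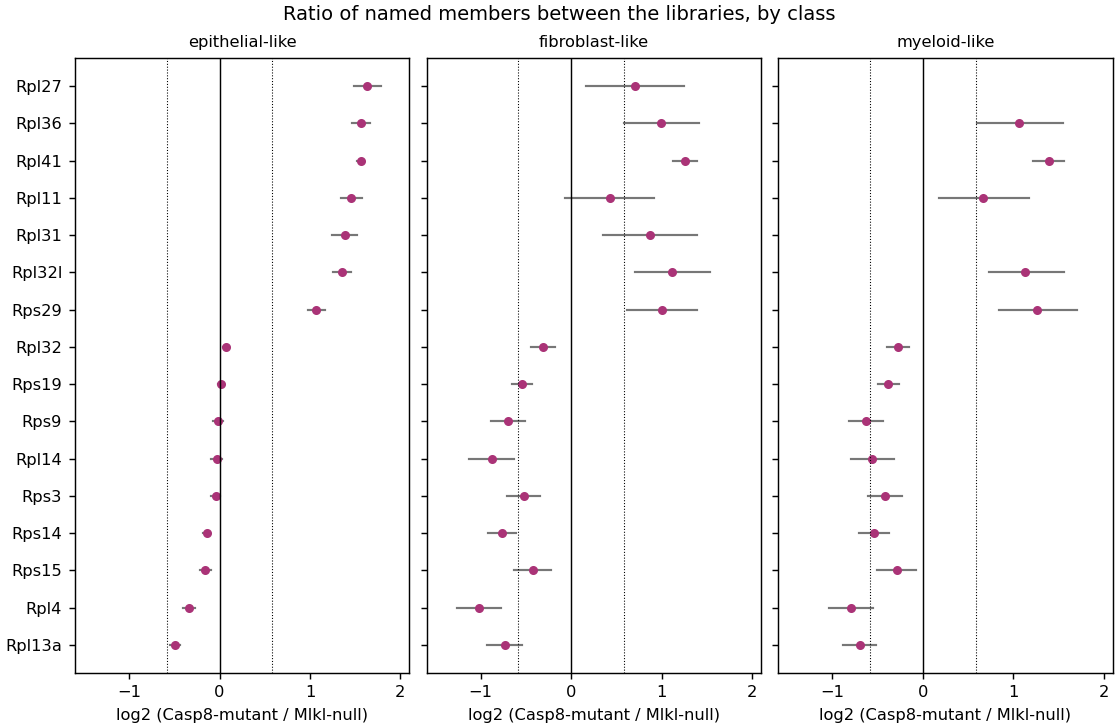
Log2 ratio of Casp8-mutant over Mlkl-null (x axis) for members among the largest and smallest ratios and highest levels, 1 panel per class. Points are ratios, bars are 95% counting intervals, the solid line is equal levels, dotted lines are 1.5-fold, and members under 100 UMIs in a class are not drawn. The upper 7 members lie right of the solid line wherever drawn, and the lower members lie near it in the epithelial-like panel and left of it in the others.

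Between classes, members were set against the epithelial-like cells of the same library. Epithelial markers were also counted in both other classes, as given above, and their part was not tested. In the Mlkl-null library 43 of 86 members were at least 1.5-fold higher in fibroblast-like cells (background 21.8%) and 2 lower (background 37.3%). In the Casp8-mutant library 3 of 85 were higher (background 12.6%) and 2 lower (background 33.5%). In myeloid-like cells 13 of 86 were higher (background 16.3%) and 2 lower (background 42.8%) in the Mlkl-null library. In the Casp8-mutant library 1 of 85 was higher (background 12.8%) and 2 lower (background 31.9%). The fibroblast-like share over the epithelial-like one was 1.123 in the Casp8-mutant library, and 1.56 at resolution 0.5, where cluster 4 was not counted as epithelial-like. Divided by the summed members, the interquartile range of the relative levels in fibroblast-like cells ran from 0.893 to 1.11 in the Mlkl-null library, and 1 member stood at least 1.5-fold above and 4 below. Rps24, a small subunit gene with alternative 3′ exons, stood highest, at 1.73 and 1.35 times its epithelial place in the Mlkl-null and Casp8-mutant libraries. Rps23 (1.34 and 1.05) and Rps4x (1.34 and 1.13) came next. Rpl7l1 (0.236 and 0.871), Rps4l (0.352 and 0.240) and Rps27l (0.555 and 0.687) stood lowest in the Mlkl-null library, Rpl7l1 from only 5 and 11 UMIs and Rps4l from 14 and 4. In myeloid-like cells Rpl7a (1.64 and 1.103, from 22 and 23 UMIs), Rps25 (1.55 and 1.52) and Rplp0 (1.51 and 1.09) stood highest, and Rps4l (0.343 and 0.606, from 9 and 12 UMIs), Rps27l (0.426 and 0.665) and Rpl22l1 (0.559 and 0.383, from 27 and 23 UMIs) lowest.

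Processed copies held more UMIs than the genes themselves. A sequence search (at least 85% identity over at least 100 bases) found 1365 copies of the 77 standard genes, 1319 of them annotated as processed pseudogenes. Only genes annotated as pseudogenes or named in the Rpl or Rps form were searched, so the latter count was largely set by that choice. Of the 77, 76 had a copy under this rule, and none was found for Rpl41. Rpl41 has 75 coding bases, fewer than the 100 required, so the search would miss a copy of its coding sequence alone. The copies outside the 90 members held 8.54% and 15.3% of UMIs in Mlkl-null and Casp8-mutant epithelial-like cells, 12.6% and 17.6% in fibroblast-like and 11.1% and 16.1% in myeloid-like cells. Stretches of 30 bases near the end of the coding sequence are shown for 3 genes and a highly counted copy of each. No base is in capitals, because gene and copy have the same letters.
Rps28 and Gm3511: ttggagtcagaaagagaagctcgaaggttg
Rpl37 and Rpl37rt: agggcagctgtcgcagcatccagttcttct
Rpl13a and Gm11478: gaggtcctcaagaccaacggactcctggtg
Gm3511 had 36836 and 12771 UMIs over all barcodes, against 2776 and 2296 for Rps28. Rpl37rt had 19756 and 11941 UMIs over all barcodes, against 8930 and 7368 for Rpl37, and Gm11478 had 15766 and 4626 UMIs over all barcodes, against 16508 and 4946 for Rpl13a. How reads with the same letters were assigned was not given in the sources used here, so the split between a gene and its copies is uncertain.

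Summing each standard gene with its copies gave 57 of 77 proteins higher and 0 lower in epithelial-like cells, with a median log2 ratio of 0.87, against 52 and 0 for the genes alone. The background over single genes, with copies counted apart, is 22.4% higher and 35.6% lower. Rpl27 with its 18 copies had a ratio of 3.12 (2.97 to 3.26), and Rpl13a with 6 had 0.757 (0.739 to 0.776). Rps28, looked at because its copy Gm3511 led the copies, had 1.94 alone and 1.06 (1.04 to 1.08) with its 12 copies. The gene alone is past the line and the sum is near equal levels. Genes and copies together made up 15.3% and 24.9% of epithelial UMIs.

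**Figure D5:**
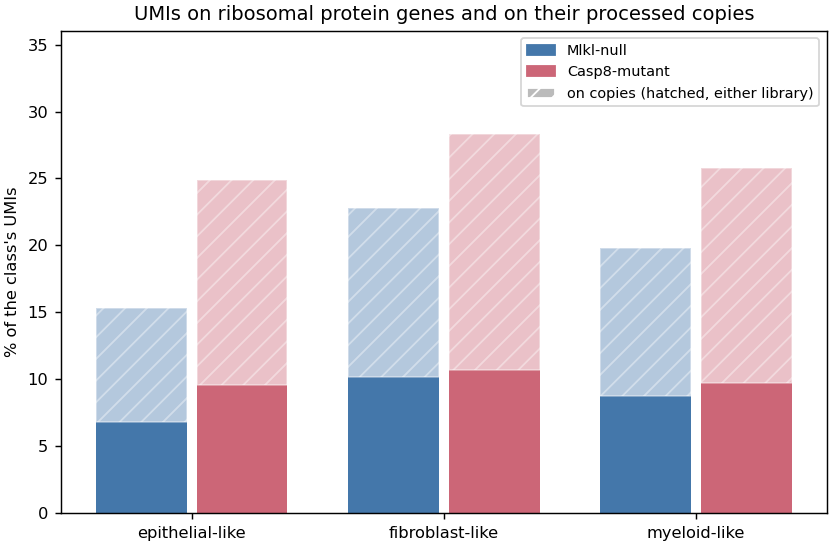
Share of a class's UMIs (y axis, %) on the ribosomal protein genes (solid) with their processed copies stacked on top (hatched), by class and library. The copies add between 8.54% and 17.6%, and the stacked bar is taller for the Casp8-mutant library in the 3 classes drawn.

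Of the genes that build ribosomes, 33 were measured in the epithelium, with 21 higher (background 22.4%) and 0 lower (background 35.6%) and a median log2 ratio of 0.82. Without cluster 4, 30 were measured, with 4 higher (13.3%, background 16%) and 3 lower (10%, background 35.7%). Npm1, a nucleolar chaperone and a top gene of cluster 4, had 193 and 457 CPM, a ratio of 2.36 (2.16 to 2.59). Ncl (nucleolin) had 305 and 589 CPM, a ratio of 1.93 (1.79 to 2.09), and Nhp2, of the RNA-modifying H/ACA complex, had 136 and 247 CPM, a ratio of 1.82 (1.62 to 2.04). In fibroblast-like cells 3 were measured, with 0 higher (background 27.9%) and 1 lower (background 19%). Npm1 and Ncl had ratios of 0.684 (0.492 to 0.933) and 0.653 (0.447 to 0.929) there. In myeloid-like cells neither of 2 measured passed the line (background 30% higher and 16.4% lower).

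Among co-products of the ribosome and elongation factors, 14 were measured, with 5 higher and 1 lower (median log2 ratio 0.47) in the epithelium. For the lists in this paragraph, the epithelial background is 22.4% higher and 35.6% lower. It is 27.9% and 19% in fibroblast-like and 30% and 16.4% in myeloid-like cells. Fau, which encodes a small subunit protein fused to a ubiquitin-like one, had 1263 and 1995 CPM, a ratio of 1.58 (1.52 to 1.64). Pabpc1, the poly(A)-binding protein, had 906 and 617 CPM, a ratio of 0.682 (0.640 to 0.725), and Rack1, on the small subunit, had 993 and 832 CPM, a ratio of 0.838 (0.793 to 0.885). In fibroblast-like cells 12 were measured, with 0 higher and 4 lower (median log2 ratio -0.34), and in myeloid-like cells 9 were measured, with 1 higher and 1 lower (median log2 ratio -0.12). Among initiation factors, 29 were measured, with 5 higher and 2 lower (median log2 ratio 0.05) in the epithelium. In fibroblast-like cells 8 were measured, with 0 higher and 3 lower (median log2 ratio -0.53), and in myeloid-like cells 8 were measured, with 0 higher and 2 lower (median log2 ratio -0.32). Eif5a had 361 and 588 CPM, a ratio of 1.63 (1.52 to 1.75) in the epithelium. Among translation inhibitors and mTOR or stress genes, 6 were measured, with 3 higher and 1 lower (median log2 ratio 0.33) in the epithelium. Eif4ebp2, a repressor of cap-dependent translation, had 64.4 and 29.3 CPM, a ratio of 0.458 (0.339 to 0.601).

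The proteins of the separate mitochondrial ribosome stood near equal levels: 76 were measured, with 5 higher and 6 lower (median log2 ratio -0.09) in the epithelium. For the lists in this paragraph the background is 22.4% higher and 35.6% lower. Among mitochondrially encoded genes, 24 were measured, with 0 higher and 16 lower (median log2 ratio -0.86). Among haemoglobin genes, markers of red cells, 5 were measured, with 5 higher and 0 lower (median log2 ratio 1.77), and they summed to 0.304% and 1.05% of epithelial UMIs. Their part in the ratios of the members was not tested.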

How the data were processed

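The measurements were UMI counts per gene and cell barcode in 1 droplet library per genotype. The counts were deposited by the authors as unnormalised whole numbers. The submitters' processing notes name the mm10 genome with Cell Ranger 3.0.2 and Seurat 3.0, and the treatment of reads that fit several genes was not given in the sources used here. Depth was 6290008 UMIs over 1478 barcodes and 2804929 over 1014.

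Gene IDs were matched to GENCODE M21 symbols (52403 of 52636 matched). Cells with at least 500 detected genes and at most 20% mitochondrial UMIs were kept, and Scrublet doublets (4 and 2) were removed. Counts were scaled to 10000 per cell and logged, and 3138 variable genes without the members, annotated pseudogenes and sex-linked genes gave 30 components, 15 neighbours and Leiden clusters at resolution 1 (scanpy 1.11.5). Clusters were named from marker lists by a rule set after the clusters were seen, so class names are rebuilt and can differ from the study's.

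Levels are summed UMIs per 1000000 UMIs of the class (CPM), with exact Poisson intervals for levels, exact Clopper-Pearson intervals for shares and conditional exact intervals for ratios (0.5 UMI added to each count for the ratio), computed with scipy 1.17.1 on Python 3.11.15. They cover counting error only, and cells are not replicates. With 1 library per genotype no test across samples was possible, and calls rest on size alone: at least 1.5-fold with at least 100 UMIs over both libraries. Background shares between the libraries count all genes at the floor, members and their copies included. Copies were found with blastn 2.17.0 (at least 85% identity, 100 aligned bases and 50% cover) among annotated pseudogenes and genes named in the Rpl or Rps form. Windows and promoters come from RefSeq. The ratio and interval code was tested on simulated data.

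Members named are the 6 largest and 6 smallest epithelial ratios, ranked by the interval bound nearest to 1, the 5 highest levels, the paralogs, the X-linked genes, Rps6, Rpl5, Rpl11, the stalk genes and Rpsa, and 3 at each end for other classes and between classes. Rps27, Rpl22, Rps28 and Rpl37 were added as parents of named genes after values were seen. The members and lists were chosen with earlier results of these data known. Some members that this rule picks are not reported here.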

Additional observations from a re-analysis of the deposited data

Results flagged for a closer look

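Barcodes left out by the cell filter were looked at because they lie outside the comparisons. Ribosomal protein genes made up 1.28% of the UMIs of the 43 barcodes left out of the Mlkl-null library and 1.16% of those of the 141 left out of the Casp8-mutant library, above the limit that a count of 0 allows. Haemoglobin genes made up 71.9% and 69.6% of the UMIs of the same barcodes.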

How the results depend on the processing

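Of 214 values of shares, medians and counts under the alternatives, 129 stayed within the spread set for them. The epithelial ratio of shares went below 1 in the cells without a cell cycle UMI, with an interval of 0.964 to 1.003, and no other ratio of shares, median or ratio between classes crossed equal levels. The others follow, with counts of members at least 1.5-fold higher or lower unless a fold is given. Backgrounds are given only where printed above, so the other counts cannot be set against all genes. Without a filter on detected genes, the values were fibroblast ratio of shares 1.09, fibroblast over epithelial share 1.45 (Mlkl-null). With at least 1000 detected genes per cell, the values were epithelial ratio of shares 1.19, median log2 ratio 0.56, 3 lower, myeloid ratio of shares 1.16, myeloid over epithelial share 1.252 (Casp8-mutant). With called doublets kept, the values were epithelial ratio of shares 1.02, median log2 ratio 0.34, 25 higher, 4 lower, myeloid over epithelial share 1.40 (Casp8-mutant). At cluster resolution 0.5, the values were epithelial ratio of shares 1.01, median log2 ratio 0.33, 24 higher, 4 lower, fibroblast ratio of shares 1.09, fibroblast over epithelial share 1.45 (Mlkl-null), fibroblast over epithelial share 1.56 (Casp8-mutant), myeloid over epithelial share 1.41 (Casp8-mutant). At cluster resolution 2, the values were epithelial ratio of shares 1.39. With members among the variable genes, the values were fibroblast ratio of shares 1.09, fibroblast over epithelial share 1.45 (Mlkl-null). With mitochondrial, haemoglobin and nuclear RNA out of the denominator, the values were epithelial ratio of shares 1.43. Without the top quartile of nuclear RNA, the values were epithelial ratio of shares 1.57, median log2 ratio 1.02. Thinned to 1000 UMIs, the values were epithelial ratio of shares 1.32, 1 lower, fibroblast ratio of shares 1.099, median log2 ratio 0.0410, 8 higher, myeloid 19 higher. Thinned to 2000 UMIs, the values were epithelial ratio of shares 1.62, median log2 ratio 1.03, myeloid ratio of shares 1.15, median log2 ratio 0.34, 17 higher. As a mean over cells, the values were epithelial ratio of shares 1.30, 1 lower, fibroblast ratio of shares 1.09, 3 lower. Scaled by the median of ratios, the values were epithelial median log2 ratio 1.14, fibroblast 10 lower, myeloid median log2 ratio 0.35, 8 lower. Scaled by the summed members, the values were epithelial median log2 ratio 0.37, 21 higher, 6 lower, fibroblast 9 lower, myeloid median log2 ratio 0.40, 7 lower. At a looser fold, the values were epithelial 3 lower, fibroblast 13 lower, myeloid 9 lower. At a fold of 2, the values were epithelial 31 higher, fibroblast 4 higher, 1 lower, myeloid 11 higher, 0 lower. At a floor of 1000 UMIs, the values were fibroblast 2 higher, 3 lower, myeloid 1 higher, 1 lower. With copies summed in, the values were epithelial ratio of shares 1.62, fibroblast ratio of shares 1.24, 3 lower, myeloid ratio of shares 1.30. Without cells that hold a cell cycle UMI, the values were epithelial ratio of shares 0.983, median log2 ratio 0.29, 18 higher, 7 lower. Thinned to 1000 UMIs and without a cell cycle UMI, the values were epithelial ratio of shares 1.08, median log2 ratio 0.42, 28 higher, 3 lower. Thinned to 1000 UMIs and with at least 2 cell cycle UMIs, the values were epithelial ratio of shares 1.18, median log2 ratio 0.50, 29 higher. Without cluster 4, the values were epithelial ratio of shares 1.02, median log2 ratio 0.34, 25 higher, 4 lower. Without clusters 4 and 6, the values were epithelial ratio of shares 1.22, median log2 ratio 0.65, 2 lower. The sums with copies, the cell cycle splits and leaving out clusters were chosen after seeing the data. Cluster 4 was renamed at resolution 0.5 and with doublets kept, and nearly all of it left the epithelial class with at least 1000 detected genes, together with cells of other clusters. Thinning to 2000 UMIs left out 130 of 1187 Mlkl-null and 234 of 585 Casp8-mutant epithelial-like cells, and the share over cells thinned to 1000 UMIs had a Spearman correlation of 0.71 and 0.72 with full depth (1187 and 575 cells). Why values moved was not otherwise tested. Fibroblast-like cells gave no value with doublets kept, with at least 1000 detected genes or thinned to 2000 UMIs, since fewer than 20 cells were left in a library. No paired analysis was possible because there was 1 library per genotype. Depth limits the smaller classes, where 17 and 21 members had too few UMIs to be compared.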
